A study of Mus musculus with 8 samples.

Results

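Resting pre-selection DN3 thymocytes were taken as the cells of clusters 0 and 1 in the table of cells that the authors deposited with their single-cell RNA counts. They numbered 4744 of the 10237 cells in the series. Double-negative (DN) thymocytes carry neither CD4 nor CD8. Per the labels, they were enriched from thymus by removing cells that bound antibodies to CD4, CD8, CD11b, immunoglobulin kappa or MHC class II on magnetic beads, and then sorted as DN3 (CD44-, CD25+) or DN4 (CD44-, CD25-). The mice were GSK3β knock-in (KI) animals, which carry alanine in place of Ser389 of this kinase, and wild-type (WT) C57BL/6J animals; the labels give no age, sex or number of mice. The groups were KI DN4, WT DN4, KI DN3 and WT DN3, each with 1 library of 5′ gene expression and 1 library of TCR sequence. With 1 library per group no difference has a replicate check. All intervals are 95% intervals that cover counting error only, and no test was made.

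DN3 is the stage at which the recombinase encoded by Rag1 and Rag2 assembles the β chain gene of the T cell receptor (TCR). Notch signals from the thymic stroma hold the cells in the T lineage and drive genes such as Ptcra, which encodes the invariant chain that pairs with a first β chain to form the pre-TCR. A cell that makes a productive β chain passes β-selection, divides rapidly and loses CD25, whereas a cell that has not yet done so is small and out of cycle.

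Almost all of the resting cells came from the DN3 sort. They were 2469 of 3298 KI DN3 cells (74.9%, 73.3 to 76.3) and 2255 of 2885 WT DN3 cells (78.2%, 76.6 to 79.7). In the DN4 sort they were 14 of 2577 KI cells (0.543%) and 6 of 1477 WT cells (0.406%). The pair of clusters split by library: cluster 0 held 2415 KI DN3 and 109 WT DN3 cells, and cluster 1 held 54 and 2146, so they were described together. They gave a smaller part of the RNA than of the cells, 49.1% of the UMIs (unique molecular identifiers, 1 per captured transcript) of KI DN3 and 56.6% of those of WT DN3.

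A median resting cell held 4864 UMIs in KI DN3 and 5446 in WT DN3, against 15294 and 14886 in the remaining DN3 cells of those libraries. The range was 883 to 17245 in KI DN3 and 728 to 14537 in WT DN3. Summed over resting cells, the libraries held 12536768 and 12820151 UMIs, and levels are given as CPM, the gene's UMIs after such a sum is scaled to 1000000 counts. Genes detected per cell were 1998 and 2166, against 3665 and 3638.5 in the remaining cells. After each cell was thinned to 3000 UMIs, which left out 191 KI and 97 WT resting cells, they were 1423 and 1437 against 1386 and 1386. Mitochondrial transcripts made up a median of 3.08% and 2.78% of UMIs, against 2.04% and 1.92%. Across the 4 libraries 54 cell barcodes occurred more than once, and 60 resting cells carried such a barcode.

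The label was checked against 6 marker genes, Il2ra, Ptcra, Rag1, Notch3, Hes1 and Erg, set within each DN3 library against all cells outside clusters 0 and 1. All 6 were higher in the resting cells of both libraries. The clusters divide cells by these same transcripts, so this describes the clusters and does not test them. Il2ra encodes CD25, the interleukin-2 receptor α chain on which the cells were sorted. It stood at 646 CPM in KI resting cells against 211 CPM in the other KI DN3 cells, and at 657 against 244 CPM in WT. Those are log2 ratios of 1.61 [1.55 to 1.67] in KI and 1.43 [1.36 to 1.49] in WT.

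Ptcra, the pre-TCR α chain gene, stood at 622 CPM in KI resting cells against 106 in the other KI DN3 cells, and at 628 against 121 in WT, log2 ratios of 2.56 [2.48 to 2.64] and 2.38 [2.29 to 2.47]. Rag1 stood at 178 against 21.6 CPM in KI and 156 against 25.6 CPM in WT (3.05 [2.87 to 3.23] and 2.61 [2.42 to 2.80]). For both genes, and in both libraries, the resting level was several times that of the other cells. Notch3, a Notch receptor that Notch signals themselves induce, was at 97.7 against 11.6 CPM in KI and 99.1 against 10.7 in WT (3.07 [2.83 to 3.32] and 3.21 [2.93 to 3.51]). Hes1, a repressor that Notch switches on, was at 203 against 48.6 CPM in KI and 262 against 79.9 in WT (2.06 [1.94 to 2.19] and 1.71 [1.60 to 1.82]). Erg, an ETS family factor of early T cell precursors, was at 22.2 against 1.85 CPM in KI and 17.2 against 2.03 in WT. Its ratio was steep (3.59 and 3.08), but its WT level was under the 20 CPM that the counts below require in both libraries.

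Ptcra and Rag1 moved together across clusters, and the DNA just before their starts is shown because E proteins are known regulators of both genes, and Notch of Ptcra, in the mouse. The windows run from 250 bases before to 50 after the start (RefSeq, GRCm38.p6), both on the minus strand, Ptcra at chr17:46763663-46763962 and Rag1 at chr2:101649483-101649782. Capitals mark TTCCCA, the core that the Notch partner RBPJ binds, which reads TGGGAA on the other strand. They also mark 2 forms of the E-box, the site that E proteins bind. The first is CAGCTG, which reads the same on both strands. The second is CAGGTG, which appears in the other direction with the letters CACCTG where it lies on that strand. None of the capital runs overlap.
Ptcra: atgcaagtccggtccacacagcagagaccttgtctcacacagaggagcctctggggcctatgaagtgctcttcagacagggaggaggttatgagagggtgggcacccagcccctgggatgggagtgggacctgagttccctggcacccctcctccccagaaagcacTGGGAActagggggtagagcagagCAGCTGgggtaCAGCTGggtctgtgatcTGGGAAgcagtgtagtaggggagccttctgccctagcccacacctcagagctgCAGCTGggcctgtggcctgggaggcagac
Rag1: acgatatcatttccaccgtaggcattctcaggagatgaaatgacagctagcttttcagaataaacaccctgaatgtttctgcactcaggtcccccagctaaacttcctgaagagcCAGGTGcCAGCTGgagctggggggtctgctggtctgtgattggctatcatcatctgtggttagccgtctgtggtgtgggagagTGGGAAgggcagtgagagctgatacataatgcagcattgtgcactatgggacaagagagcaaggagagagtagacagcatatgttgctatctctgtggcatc

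The Ptcra window held 2 matches to TTCCCA, starting 84 and 32 bases before the start, and 3 to CAGCTG. The Rag1 window held 1 match to TTCCCA, 52 bases before the start, 1 to CAGCTG and 1 to CAGGTG. Of 32851 RefSeq promoter windows of the same length, 25.6% held TTCCCA, 16.3% CAGCTG and 20.2% CAGGTG, so such matches are common, and a match is a description, not a binding site. The Il2ra and Notch3 windows held none of these letters, and Hes1 had no entry. Of 3 Erg windows 1, chr16:95459299-95459598 on the minus strand, held TTCCCA, 16 bases before the start, and CAGGTG, and the other two held none. The whole genes lie at chr17:46755663-46763712 (Ptcra, minus strand), chr2:101638282-101649501 (Rag1, minus), chr2:11642807-11693193 (Il2ra, plus), chr17:32120820-32166852 (Notch3, minus), chr16:30064384-30067796 (Hes1, plus) and chr16:95359169-95586593 (Erg, minus) in the GENCODE annotation of GRCm38.

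**Figure D1:**
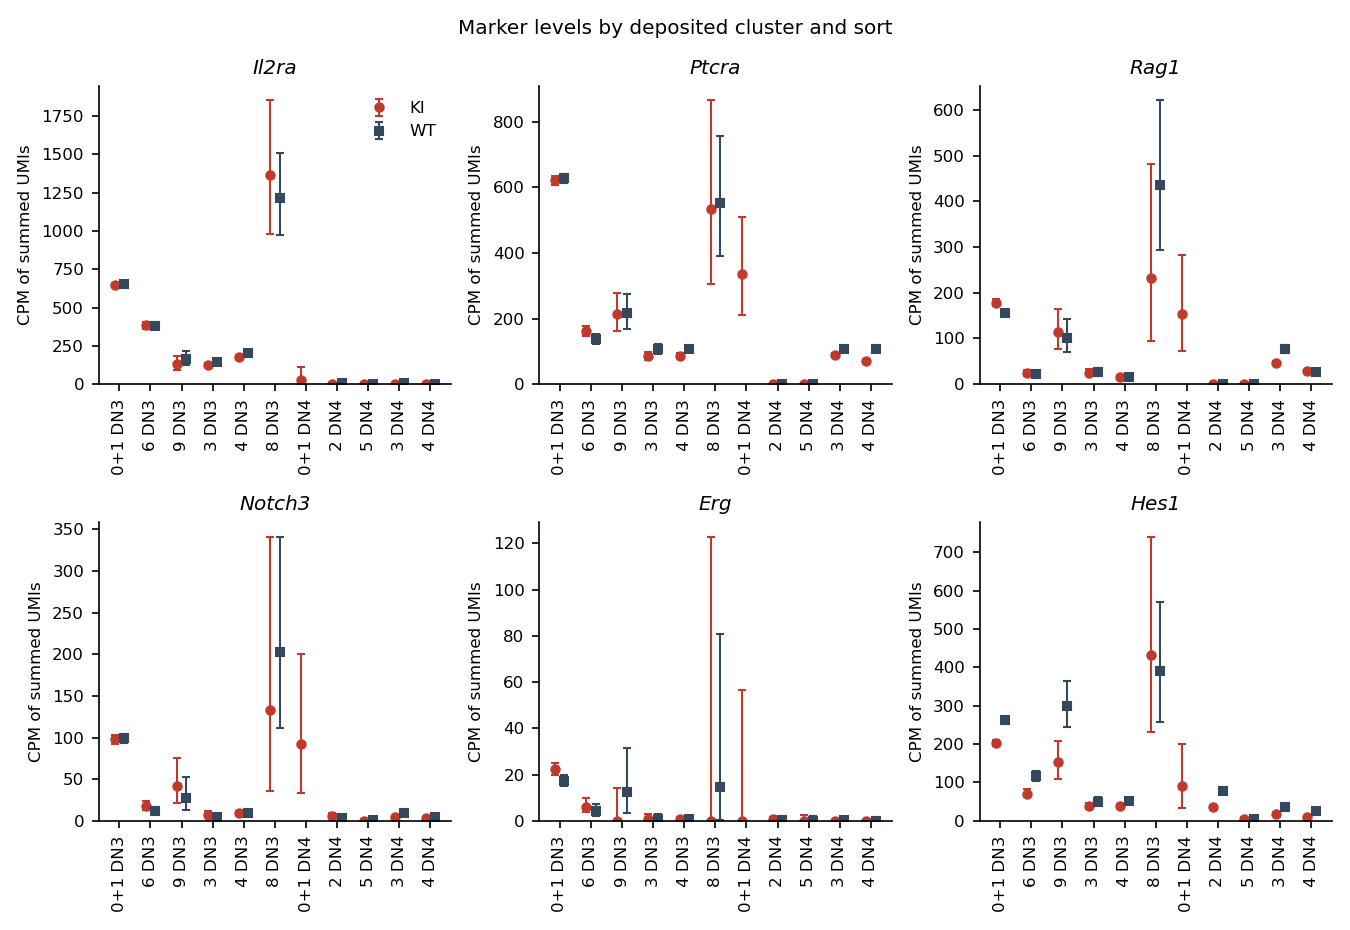
Level of the 6 marker genes (CPM of summed UMIs, linear axes from 0, 1 scale per panel) by deposited cluster and sort, with circles for KI, squares for WT and exact 95% Poisson intervals of counting error as bars; of clusters 0 and 1 in the DN4 sort the KI cells alone are drawn. In the DN3 sort clusters 0 and 1 stood above clusters 3, 4 and 6 for all 6 genes, and cluster 8 stood above them for Il2ra, at 1366 CPM in KI and 1218 CPM in WT.

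By cluster, summed over libraries, Ptcra was at 624.2 CPM in cluster 0 and 624.0 in cluster 1. It was lower in cluster 9 (213) and cluster 6 (149), was at 93.8 and 89.6 in clusters 3 and 4, and was under 1 in clusters 2, 5 and 7. Cluster 8 was at 348, but its DN4 cells, 16 KI and 25 WT, had 0 Ptcra UMIs. Its DN3 cells were at 533 CPM in KI (305 to 866) and 551 in WT (390 to 756), intervals that cover the resting levels. Notch3 was at 97.95 and 98.9 CPM in clusters 0 and 1, at 116 in cluster 8 and at 32.0 in cluster 9, and under 15 elsewhere. The markers therefore did not set clusters 0 and 1 apart from every other cluster. Cluster 8, 14 KI and 33 WT cells of the DN3 sort, had Il2ra at 1366 and 1218 CPM and Rag1 at 233 and 435 CPM there. Hes1 was at 433 and 391.5 CPM in these cells, above the 203 and 262 CPM of resting cells. Cluster 8 was shallow, with medians of 2206.5 UMIs in KI DN3 and 1969 in WT DN3. Its median mitochondrial share there was 6.43% and 6.56%, against 3.08% and 2.78% in resting cells. Cluster 9, 31 KI and 38 WT DN3 cells, had Il2ra at 134 and 165 CPM and Rag1 at 115 and 101 CPM.

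Cell by cell the markers were widespread but not universal. With every cell thinned to 3000 UMIs, Ptcra had a UMI in 76.6% of KI and 76.5% of WT resting cells (86.3% and 86.4% before thinning). It had one in 27.7% of KI and 28.3% of WT cells of cluster 6, and in 0% of KI and 0% of WT DN4 cells of cluster 5, a cluster whose cells should lack it and whose median depth was 3767.5 and 4508 UMIs; being in other libraries, it does not measure free RNA in the DN3 libraries. Rag1 had a UMI in 37.0% and 33.5% of thinned resting cells, against 4.84% and 4.17% in cluster 6 and 0% and 0.377% in cluster 5. Notch3 had one in 26.3% and 25.6%, Hes1 in 37.2% and 43.7% and Erg in 6.1% and 4.91% of resting cells, and all 3 were at or under 0.755% in cluster 5. Of thinned resting cells 3.34% in KI and 3.15% in WT had none of the 6 markers, against 28.7% and 25.4% in cluster 6. All 6 at once were found in 6 KI and 3 WT cells.

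Some genes followed the markers closely over the 10 clusters. By Pearson correlation of log2(CPM + 1), a description over clusters that share libraries, the genes most like Rag1 were Degs2 and Desi1, both at 0.988, and Ptcra at 0.978. Ptcra was most like Hibadh (0.986), Rnf157 (0.984) and Desi1 (0.979), and Il2ra most like Mfsd13a (0.990), Uck2 (0.986) and Camkv (0.978). The profile of Notch3 was nearest to Rasa4 (0.986), Gm11342 (0.983) and Eef2k (0.982). For Hes1 the nearest were AW011738, Tmem176b and Drosha (0.978, 0.974 and 0.969), and for Erg they were Cd59a, Gm5111 and Ctla2a (0.987, 0.985 and 0.962).

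Across all genes, a difference was counted when it was at least 2-fold in the same direction in both DN3 libraries, among genes with at least 20 CPM on either side in each. Of 6008 such genes, 847 (14.1%) were higher in resting cells than in the other DN3 cells and 568 (9.45%) were lower. These shares are the ones to set beside each list count against the other DN3 cells. A gene under 20 CPM in resting cells, or in the other cells, enters through the opposite side alone. It can then differ in that direction only. The median log2 ratio of all 6008 was 0.15 in both libraries. This balance depends on scaling. Scaled by trimmed means (TMM), which shifted all ratios by −0.32 in KI and −0.25 in WT, 492 were higher and 896 lower, and by median ratios (−0.33 and −0.30) 467 and 948, so the higher share of the differing genes was 59.9% as summed, 35.4% by TMM and 33.0% by median ratios. All 492 and all 467 were among the 847. Without the cells that carry a shared barcode, 840 of the 847 and 563 of the 568 were still counted.

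The genes furthest up, by the smaller of both ratios, were led by Arhgef10l, a gene for a guanine nucleotide exchange factor, at 27.8 against 2.23 CPM in KI and 32.9 against 2.34 CPM in WT (3.64 [3.09 to 4.24] and 3.81 [3.21 to 4.49]). Among the 12 by this rule were also Spib, an ETS factor of lymphoid cells (log2 ratios 3.15 and 3.1), Notch3, Itgb4, the integrin β4 gene (3.06 and 3.29), and Ypel3 (3.40 and 3.05). Genes better known from other blood cells were there too. Pld4, a nuclease gene of endosomes, was at 217 against 21.8 CPM in KI and 243 against 29.9 in WT. Ccl4, a chemokine gene, was at 50.4 against 5.54 in KI and 48.9 against 5.49 in WT, and Lyz2, the lysozyme gene of myeloid cells, at 29.1 against 3.003 and 23.0 against 2.75. In thinned cells Pld4 had a UMI in 41.7% of KI and 43.5% of WT resting cells, Ccl4 in 12.4% and 11.7%, and Lyz2 in 8.34% and 6.58%. In clusters 3 and 4 of the same libraries, thinned alike, the shares were 5.15% and 5.18% for Pld4, 0.825% and 0.971% for Ccl4 and 0.619% and 0.971% for Lyz2; how much of a share free RNA gives was not measured. The rest of the 12 were Armc3 and the predicted genes Gm5111, Gm34004 and Gm4632, the last at 963 against 104 CPM in KI and 1036 against 113 in WT.

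The 12 furthest down were led by Pclaf, a clamp-associated factor of replicating DNA, at 1.83 against 700.4 CPM in KI and 1.87 against 618 in WT (−8.58 [−9.24 to −7.99] and −8.37 [−9.01 to −7.79]). Ccna2, the S phase cyclin gene, was at 0.798 against 184 CPM in KI and 0.468 against 156 CPM in WT. Birc5, the survivin gene, was at 1.68 against 293 in KI and 0.780 against 223 in WT, and Rrm2, a ribonucleotide reductase subunit gene, at 3.51 against 371 and 2.65 against 331. The remaining 8 (Pbk, Esco2, Ska1, Aunip, Hmmr, E2f8, Mxd3 and Kif2c) are mostly known from mitosis and replication, and several had 3 or fewer UMIs over all resting cells of a library, so their ratios are not given.

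**Figure D2:**
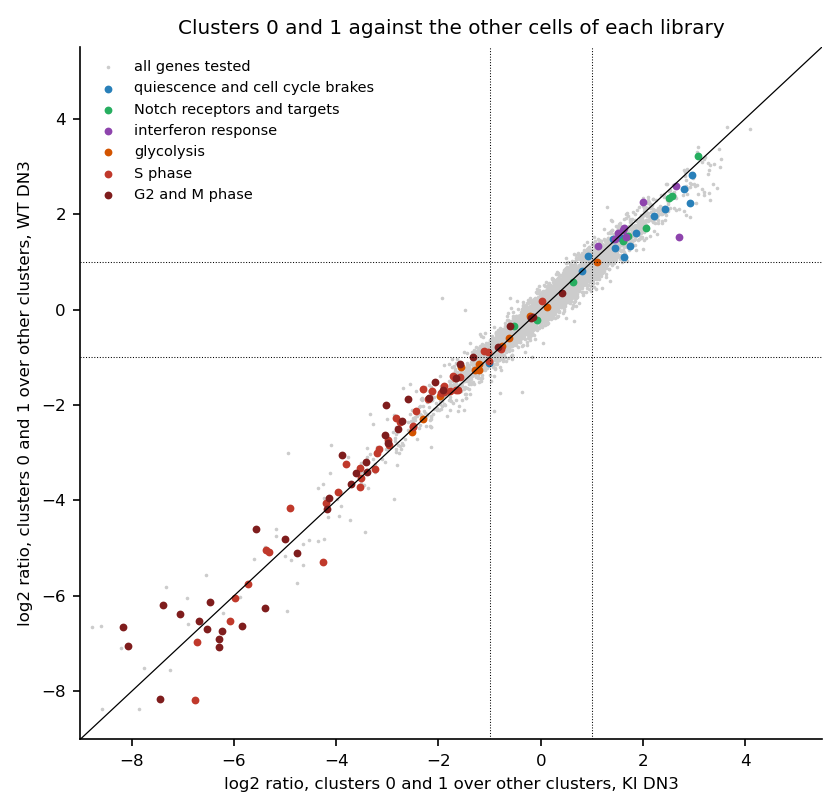
Log2 ratio of resting DN3 cells over the other DN3 cells in KI (horizontal) and WT (vertical), 1 point per gene of the 6008 with at least 20 CPM on either side in both libraries; colours mark 6 gene lists, dotted lines a 2-fold difference and the solid line equal ratios. The 847 genes counted as higher lie at the upper right beyond the dotted lines, with many quiescence, Notch and interferon genes, and the 568 lower ones lie at the lower left, with most of the S phase and G2 and M phase genes.

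Resting cells were out of cycle by phase calls and by cycle genes. How the calls were made is not given, and they may rest on the same genes. Calls and genes are therefore not separate support. The authors' phase calls put 96.6% of KI resting cells (95.8 to 97.2) and 96.7% of WT resting cells (95.8 to 97.4) in G1, against 10.1% and 17.6% of the other DN3 cells. Of 46 S phase genes 42 reached 20 CPM, and 38 of them were lower and 0 higher in resting cells (medians −2.79 in KI and −2.45 in WT). Of 48 G2 and M phase genes 40 reached it, with 34 lower and 0 higher (−3.66 and −3.41). In KI or WT resting cells themselves 23 S phase and 13 G2 and M phase genes reached 20 CPM. Genes that entered only through the other cells could not have come out higher, so the counts of 0 are partly set by this minimum. Mki67, the Ki-67 proliferation antigen gene, was at 2.31 against 173 CPM in KI and 1.33 against 141 CPM in WT. Mcm5, a subunit of the replicative helicase, was at 27.8 against 323 CPM in KI and 30.1 against 299 in WT.

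Most measured brakes of the cell cycle were higher. Of 19 genes of quiescence and cycle arrest 14 reached 20 CPM, with 11 higher and 1 lower (medians 1.68 and 1.49). The cells they were set against were mostly cycling. Against the other cells of all 4 libraries the medians were 0.80 in KI and 0.91 in WT, and Btg1, an antiproliferative factor gene, was at 221.5 and 243.9 CPM in clusters 0 and 1 but at 548 and 658 CPM in clusters 2 and 5, which hold DN4 cells mostly called G1. Cdkn1a, the p21 inhibitor of cyclin-dependent kinases, was at 154 against 19.9 CPM in KI and 172 against 24.5 in WT (2.96 [2.77 to 3.15] and 2.81 [2.62 to 3.01]). Btg1 was at 221 against 31.6 and 244 against 42.5 CPM, and Mxd4, an antagonist of Myc, at 206 against 27.4 and 168 against 35.8. In each of them the resting level exceeded the other cells' level in both libraries. Txnip, which limits glucose uptake, had log2 ratios of 2.42 and 2.10, Pik3ip1, an inhibitor of PI3 kinase, 2.21 and 1.96, and Cdkn1b, the p27 inhibitor, 1.57 and 1.5. The exception was Cdkn2c, the p18 inhibitor gene, at −1.02 and −1.12.

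Genes of growth metabolism were lower. Of 12 measured glycolysis genes 7 were lower and 0 higher (medians −1.21 and −1.17). Ldha, the lactate dehydrogenase subunit gene, was at 426 against 1675 CPM in KI and 456 against 1590 in WT (−1.97 and −1.80), and Pgam1, a mutase of lower glycolysis, at 91.8 against 452 and 85.1 against 418. Hk1, a hexokinase gene, had ratios of 1.10 in KI and 0.99 in WT, the second just under 2-fold. Of 12 measured genes of the Myc and nutrient uptake list 7 were lower and 0 higher (−1.19 and −1.12), among them Ncl, the nucleolin gene (−1.62 and −1.45), and Cad, of pyrimidine synthesis (−1.86 and −1.68). Myc itself was at 145 against 154 CPM in KI and 141 against 166 in WT (−0.08 and −0.23). Of 18 nuclear respiratory chain genes 5 were lower and 0 higher (−0.82 and −0.86), with the cytochrome c gene Cycs at −2.32 and −1.86.

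Notch receptors and their targets were mostly higher in resting cells. Of 19 such genes 10 reached 20 CPM, 7 of them higher and 0 lower in resting cells (medians 1.68 and 1.54). Besides Notch3, Hes1, Ptcra and Il2ra these were Notch1, the receptor that T cell development depends on, at 339 against 107 CPM in KI and 327 against 113 in WT (1.66 [1.58 to 1.75] and 1.53 [1.43 to 1.63]), Dtx1, a Deltex ubiquitin ligase gene induced by Notch (2.51 and 2.33), and Bcl11b, the commitment factor gene (1.70 and 1.54). Tcf7, which encodes TCF1, a target of Notch at an earlier stage, was at 583 against 838 CPM in KI and 566 against 715 in WT. The list shares 4 genes with the markers.

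The recombinase genes were higher. Rag2, the partner of Rag1, was at 30.8 against 8.16 CPM in KI and 33.0 against 11.8 CPM in WT (1.92 [1.60 to 2.24] and 1.48 [1.18 to 1.79]). Dntt, the terminal transferase that adds bases at the joins, was at 1914 against 1139 CPM in KI and 2137 against 1305 in WT (0.75 [0.72 to 0.78] and 0.71 [0.68 to 0.74]), less than 2-fold apart. Of 10 measured genes of end joining and the response to DNA breaks 2 were higher and 2 lower, too few to read apart from the 14.1% and 9.45% of all genes. The higher pair were Dclre1c, the Artemis nuclease that opens hairpin ends (2.08 and 2.23), and Lig4, the ligase of the pathway (1.52 and 1.76). H2afx, a histone variant gene (−2.15 and −1.67), and Nbn, a sensor of breaks (−1.79 and −1.70), were lower. The list's median, −0.19 in KI and −0.02 in WT, was close to 0 while that of all genes was 0.15.

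Of 18 measured genes of the pre-TCR complex and its proximal kinases 8 were higher and 1 lower (medians 1.05 and 0.92). The higher ones beside Ptcra included the CD3 genes Cd3d (1.41 and 1.42) and Cd3g (1.30 and 1.29), the kinase gene Lck (1.08 and 1.14), the adaptor gene Lat (1.06 and 1.15) and Cblb, a ubiquitin ligase that restrains signalling (2.15 and 1.91). Cd3e fell on either side of the limit, at 1.13 in KI and 0.93 in WT. Zap70, the kinase that docks on the phosphorylated CD3 chains, was the lower one, at 24.1 against 79.3 CPM in KI and 23.9 against 71.6 CPM in WT (−1.72 [−1.91 to −1.53] and −1.58 [−1.78 to −1.39]). In both libraries its level in resting cells was well below that in the other cells.

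Of 9 measured genes that respond to the pre-TCR 2 were higher and 3 lower, where 14.1% and 9.45% of all genes were, and single members differed widely. Cd5, a negative regulator whose level follows signal strength, was at 2.39 against 27.02 CPM in KI and 3.43 against 36.1 CPM in WT (−3.50 [−4.09 to −2.96] and −3.40 [−3.88 to −2.94]). Id3, the inhibitor of E proteins that the pre-TCR induces, was at −1.5 and −2.10 and Cd6, a relative of Cd5, at −1.78 and −2.10. Egr1, an immediate early factor gene, was higher, at 65.2 against 14.7 CPM in KI and 98.4 against 22.2 in WT, as was Cd69, an early activation antigen gene (1.55 and 1.5). Neither marks clusters 0 and 1. Egr1 was at 65.8 and 97.9 CPM there but at 328 and 528 in clusters 5 and 8. Cd69 was at 106 and 133 CPM there but at 262 and 522 in clusters 5 and 8. The other 11 of 20 members did not reach 20 CPM.

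Egr1 and Cd69 did not stand alone. Of 15 measured immediate early genes 11 were higher and 0 lower in resting cells (medians 1.63 and 1.28, and 0.80 and 0.95 against the other cells of all 4 libraries). Jun, an AP-1 subunit gene, was at 856 against 176 CPM in KI and 714 against 164 in WT, and Junb at 2399 against 622 in KI and 4616 against 1336 in WT. By cluster both were highest in cluster 8, at 1945 and 7490 CPM. All 9 measured interferon response genes were higher as well (1.62 and 1.60), where 14.1% of all genes were. The other 7 of 16 members were under 20 CPM. Among the 9 were Irf7, the factor that amplifies the response (31.4 against 7.85 CPM in KI and 55.4 against 11.6 in WT) and Zbp1, a nucleic acid sensor gene (2.65 and 2.58). Irf7, under 20 CPM in the other cells, entered through the resting cells alone and could not have come out lower. The count is therefore partly set by this minimum. Against the other cells of all 4 libraries the interferon medians were 1.02 in KI and 1.46 in WT, and among G1 cells 1.11 and 0.83. Irf7 was at 23.3 and 63.6 CPM in clusters 0 and 1 but at 112 and 94.5 CPM in clusters 2 and 5, and Zbp1 at 32.9 and 57.5 against 84.8 CPM in cluster 2, so these levels do not mark clusters 0 and 1.

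Of 20 measured T lineage factor genes 6 were higher and 0 lower (medians 0.69 and 0.69), where 14.1% and 9.45% of all genes were. The lists of this paragraph are short, and their counts are descriptions to be read beside those shares. The 6 included Gfi1, a repressor gene (1.62 and 1.32), Runx1 (1.47 and 1.19) and Ets2 (1.48 and 1.41). Lef1, a partner of β-catenin, was at 197 against 309 CPM in KI and 249.3 against 374 in WT, and Tox at −0.68 and −0.73, neither 2-fold. Of 7 measured E protein and Id genes 3 were higher, Id2 (1.53 and 1.28), the corepressor gene Cbfa2t3 (1.78 and 1.67) and Tcf4 (1.28 and 1.0), and Id3 was lower. Of 7 measured BCL2 family genes 3 were higher, the survival genes Mcl1 (1.47 and 1.46) and Bcl2 (1.18 and 1.09) and the death gene Bcl2l11 (1.57 and 1.14), while the death gene Bid was lower (−1.0 and −1.01). Of 10 measured cytokine receptor and STAT5 genes 3 were higher, and Il7r, the interleukin-7 receptor gene, was at 0.54 and 0.48. Ccr9, the homing receptor for thymic CCL25, was at 178 against 36.6 CPM in KI and 275 against 70.0 in WT, but set against the other cells of all 4 libraries its KI ratio was −0.05. None of 9 measured genes of the GSK3 and Wnt pathway was 2-fold apart, and Gsk3b was at 117 against 65.2 CPM in KI and 135 against 70.1 in WT.

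Markers of other cells were read in the same sums. The β-selected and double-positive list came to 1290 CPM in KI and 1597 in WT resting cells. In the other DN3 cells it was at 437 and 563 CPM. Of its 4 measured members 3 were higher and 0 lower (medians 1.53 and 1.49), so this list does not bear out the label. Arpp21 was at 732 and 758 CPM and Endou at 262 and 416. Cd4 was at 0.798 and 0.702 CPM and Cd8a at 0.239 and 0.312. Of 8 genes of the earlier DN1 and DN2 stages none reached 20 CPM, and together they came to 35.2 CPM in KI and 33.6 in WT resting cells. The erythroid gene Hba-a2 was at 0, and of the myeloid list Itgam was at 0 and Csf1r at 0.0798 and 0.0780 CPM, although Cst3 (155 and 163) and Lyz2 were present, for a sum of 184 and 187 CPM. Of the B cell list Cd79a was at 0.399 and 0.390 CPM, and Cd79b made up nearly all of the 94.8 and 96.4 CPM. The NK cell list came to 285 and 418 CPM, almost wholly Nkg7 and Gzma (152 and 257), with Klrb1c, Klrd1, Eomes and Ccl5 at 0. Genes of γδ T cells came to 1195 CPM in KI and 1622 CPM in WT resting cells, against 857 and 1136 in the other DN3 cells. Most of the resting sum came from the γ locus genes Trgv2 (585 and 898 CPM) and Tcrg-C1 (318 and 383). Trdc, the δ constant gene, was at 239.9 against 221 CPM in KI and 271 against 222 in WT, whereas Sox13, a factor of γδ cells, was at 6.62 and 6.71 CPM in resting cells. Of the stromal list Epcam (303 and 210.4 CPM) and Pecam1 were read and Col1a1 was at or under 0.0798 CPM. Their part in the results above was not tested.

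Because cycle phase and cluster went together, the comparison was also made among G1 cells alone, 2384 KI and 2180 WT resting cells against 84 and 111 others. Of 5854 genes 122 (2.08%) were then higher and 134 (2.29%) lower, and 116 of the 122 were among the 847. Ptcra kept ratios of 1.85 in KI and 1.89 in WT, Rag1 of 2.16 and 1.26 and Notch3 of 1.73 and 1.61. Il2ra, at 0.43 and 0.90, and Hes1, at 0.79 and 0.34, were no longer 2-fold apart. Of the lists, 2 of 13 quiescence genes, 2 of 10 Notch genes, 2 of 9 interferon genes and 1 of 15 immediate early genes were still higher. Cdkn1a was at 3.60 in KI, against 7 UMIs in the other G1 cells, and at 1.82 in WT. Of the pre-TCR response 4 of 10 genes were lower and 0 higher (medians −0.90 and −0.77), and of glycolysis 3 of 11 were lower (−0.65 and −0.46). Some genes changed direction among G1 cells. Cdkn2c was at 2.32 in KI and 0.28 in WT and Tcf4 at −0.02 and −0.10, Bcl2 was at −0.21 in KI and Bcl2l11 at −0.08 in WT.

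**Figure D3:**
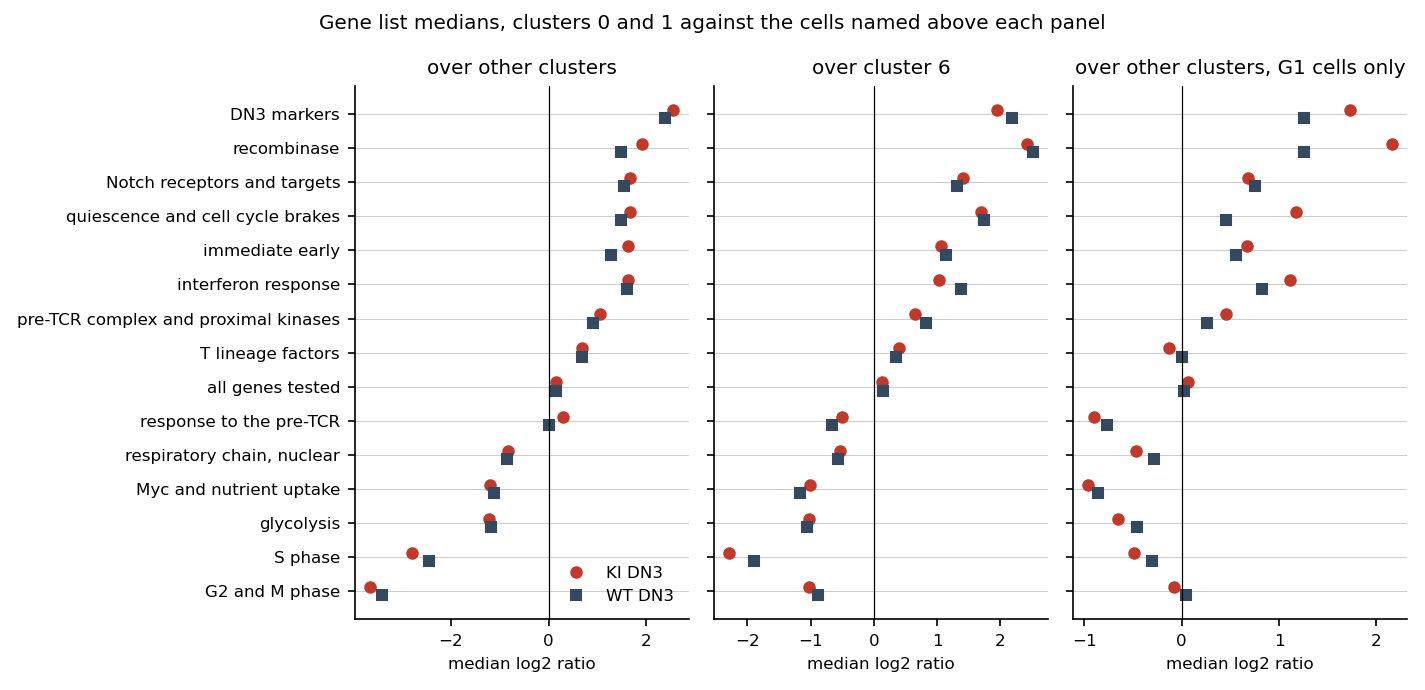
Median log2 ratio of each gene list (horizontal) in resting DN3 cells over all other DN3 cells, over cluster 6, and over the other DN3 cells with G1 cells only, in 3 panels with their own scales; circles stand for KI and squares for WT, with no error bars. S phase and G2 and M phase genes stood between −2.45 and −3.66 in the first panel and between −0.49 and 0.04 in the G1 panel, and the medians of quiescence, Notch and interferon genes were above those of all genes in all 3. The G1 panel rests on 25 S phase and 12 G2 and M phase genes, the first panel on 42 and 40.

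Resting cells were also set against cluster 6 alone, which among the larger clusters of the DN3 sort came next to them in Il2ra. It held 290 KI and 243 WT DN3 cells, with medians of 9200.5 and 10962 UMIs, and 23.4% and 30.9% of them were called G1. Of 5894 genes 542 (9.2%) were higher and 409 (6.94%) lower in resting cells. By TMM these were 367 and 586 and by median ratios 338 and 620, so the higher share was 57.0%, 38.5% and 35.3%; the shift of all ratios was −0.18 in both libraries by TMM, and −0.22 and −0.21 by median ratios.

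Against cluster 6 too, Ptcra, Rag1 and Notch3 were over 2-fold higher in resting cells, and Il2ra was not. Ptcra was at 622 against 162 CPM in KI and 628 against 137 in WT (1.94 [1.80 to 2.08] and 2.19 [2.04 to 2.35]). Rag1 was at 178 against 24.1 in KI and 156 against 22.5 in WT (2.89 [2.54 to 3.26] and 2.80 [2.43 to 3.18]), and Rag2 had ratios of 2.42 and 2.51. Notch3 was at 97.7 against 18.0 CPM in KI and 99.1 against 11.99 in WT (2.44 [2.03 to 2.88] and 3.05 [2.55 to 3.59]). In KI the Ptcra ratio was smaller than the one over all other cells, by more than 1.5-fold. Il2ra, at 646 against 385 in KI and 657 against 382 in WT (0.75 and 0.78), stayed under 2-fold. Zap70 (−1.81 and −1.68) and Cd5 (−4.32 and −4.37) were lower in resting cells here too, and Lef1 (−1.19 and −1.10) and Tox (−1.42 and −1.33), within 2-fold before, were now past it. Of the lists, 11 of 13 measured quiescence genes, 6 of 10 Notch genes, 8 of 15 immediate early genes and 5 of 10 interferon genes were higher and 0 lower, whereas 34 of 39 S phase genes were lower and 0 higher.

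The 8 genes highest over cluster 6 were led by Cdkn1a (154 against 20.2 CPM in KI and 172 against 24.0 in WT), and held Rag1, Ypel3, Itgb4, Arhgef10l and Gm34794 besides. Chrna9, a nicotinic receptor subunit gene, was at 56.9 against 7.56 CPM in KI and 47.97 against 7.63 in WT, and Arl5c, a gene of a small GTPase, at 327 against 44.7 and 339.8 against 57.4. The 8 lowest held replication and cycle genes, among them Pclaf, Cdc6, Rrm2, Dscc1 and Cdk1, and also Pdcd1, the gene of the inhibitory receptor PD-1, at 2.07 against 47.5 CPM in KI and 3.20 against 71.2 CPM in WT (−4.52 [−5.19 to −3.90] and −4.48 [−5.00 to −3.98]). Among G1 cells alone 278 (4.81%) of 5784 genes were higher and 164 (2.84%) lower than in cluster 6, and 235 of the 278 and 135 of the 164 had also differed in the same direction with all cells.

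The TCR libraries are separate from the expression libraries; whether receptor transcripts entered the clustering is not given in the sources used here. A productive β chain (TRB) contig was found in 118 of 2469 KI resting cells (4.78%, 3.97 to 5.7) and 155 of 2255 WT resting cells (6.87%, 5.86 to 8). In the other DN3 cells it was found in 610 of 829 KI cells (73.6%, 70.4 to 76.6) and 442 of 630 WT cells (70.2%, 66.4 to 73.7). In cluster 6 the counts were 198 of 290 KI cells (68.3%) and 173 of 243 WT cells (71.2%). Clusters 8 and 9 stood nearer to the resting cells, with 7.14% and 6.06% in cluster 8 and 12.9% and 10.5% in cluster 9. Without the shared barcodes the shares in resting cells were 4.76% in KI and 6.86% in WT. No resting DN3 cell had a productive α chain (TRA) contig, 0 of 2469 in KI and 0 of 2255 in WT; a count of 0, taken as 3 counts of the total, allows up to 0.122% in KI and 0.133% in WT.

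Depth differs between these cells, so the share was read within windows of UMIs. Among cells of 4000 to 6000 UMIs, 51 of 1149 KI resting cells (4.44%) had a productive TRB contig against 31 of 40 KI cells of cluster 6 (77.5%), and 65 of 1085 WT resting cells (5.99%) against 10 of 11 (90.9%). Among cells of 8000 to 12000 UMIs these were 14 of 119 (11.8%) against 79 of 121 (65.3%) in KI, and 23 of 205 (11.2%) against 55 of 87 (63.2%) in WT. The gap held in both windows, and within the resting cells the share was higher in the deeper window. A DN4 cluster of like depth, cluster 5, had a productive TRB contig in 89.9% of KI and 89.8% of WT cells, and a TRA contig in 80.8% and 83%. Another DN4 cluster of like depth, cluster 2 (medians of 4297.5 and 5252 UMIs), had a productive TRB contig in 18.6% and 18.7%. The share thus differed widely between clusters of like depth. Transcripts of the β constant genes were not scarce in resting cells, at 1344 CPM in KI and 986 CPM in WT against 1118 and 805 in the other DN3 cells; counts of the constant part do not tell a rearranged transcript from one that is not.

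**Figure D4:**
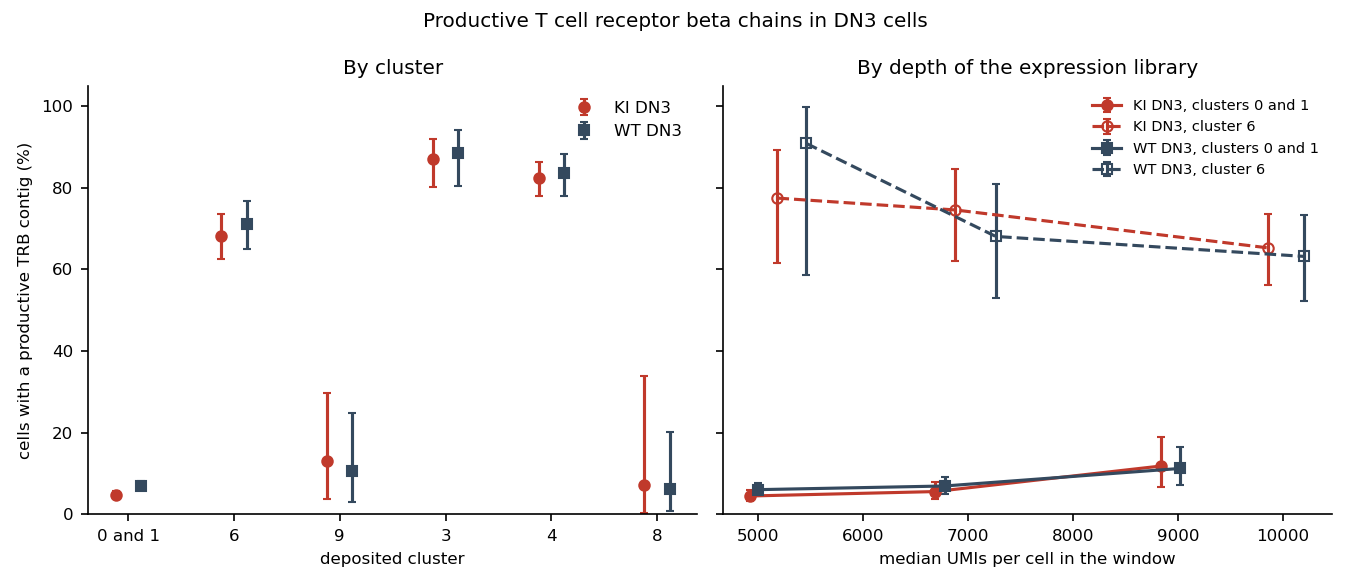
Share of DN3 cells with a productive TRB contig (percent, exact 95% binomial intervals as bars), by deposited cluster on the left, and on the right against the median UMIs per cell in 3 windows of depth for clusters 0 and 1 (filled, solid lines) and cluster 6 (open, dashed lines); circles stand for KI and squares for WT. Resting cells stood at 4.78% in KI and 6.87% in WT, against 68.3% and 71.2% in cluster 6, and the pair of groups stayed apart in each window.

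The contigs that were found rested on fewer molecules. A productive TRB contig of a resting cell had a median of 13 UMIs in KI and 17 in WT, against 33 and 36 in cluster 6 and 48.5 and 47 in clusters 3 and 4. Its CDR3, the join that contacts antigen, had a median length of 14 amino acids in both libraries. Among cells with a productive TRB contig, a second one was found in 3 of 118 KI and 7 of 155 WT resting cells. In the other DN3 cells it was found in 41 of 610 and 29 of 442. Of the resting cells with a productive TRB contig, 16.9% in KI and 13.5% in WT also had a nonproductive one with a V gene, against 26.8% and 25.4% in cluster 6.

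Rearrangements were almost all private to a cell. None of the 118 KI and 1 of the 155 WT resting DN3 cells with TRB shared its join with another cell of its library, against 8 of 610 KI and 3 of 442 WT cells elsewhere in the DN3 sort. The 3 joins (chromosome 6) that a resting cell shared with any other cell are shown, from the first to the last codon of the CDR3, because a join found on either side of the cluster boundary is the nearest these data come to a link between cells. Capitals are not used, as no base is singled out.
TRBV12-2 or TRBV13-2 with TRBJ2-7: tgtgccagcggtgattttgaacagtacttc
TRBV12-2 with TRBJ2-4: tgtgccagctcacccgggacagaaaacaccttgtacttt
TRBV23 with TRBJ2-4: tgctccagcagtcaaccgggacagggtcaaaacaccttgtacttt

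The first was in a KI DN3 cell of cluster 0 (46 UMIs) and a WT DN3 cell of cluster 1 (23 UMIs), which come from different mice. The second joined a WT DN3 resting cell (5 UMIs) and a WT DN3 cell of the cycling cluster 4 (18 UMIs). The third joined a WT DN4 cell of cluster 0 (7 UMIs) and a WT DN4 cell of cluster 3 (30 UMIs). In the last pair of joins the resting cell had the smaller count.

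V gene use was read over the resting cells with a productive TRB contig. TRBV15 was in 21 of 118 KI cells (17.8%) and 15 of 155 WT cells (9.68%), against 6.39% and 4.75% of the other DN3 cells with TRB. TRBV17 was in 5.93% and 4.52% against 2.3% and 1.36%, while TRBV14 (0.847% and 1.94% against 2.13% and 4.07%) and TRBV2 (0.847% and 1.94% against 4.1% and 4.3%) were used less. These 4 were the V genes at least 2-fold apart in both libraries, a rule chosen after the values were seen, and several rest on 1 to 7 cells.

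The spread between resting cells was read with each cell thinned to 3000 UMIs, in 2278 KI and 2158 WT cells. The Fano factor (variance over mean of the UMI count, 1 for counting noise alone) had a median of 1.01 in both libraries over 4065 genes. Genes of low mean lie near 1 at this depth, so the median does not tell how alike the cells are. It was at least 1.5 for 108 genes in KI and 119 in WT, 100 of them shared, and at least 2 for 30 and 42, 27 of them shared. In cells thinned to 2000 UMIs the 100 became 47. Leaving out the gene classes (receptor, immunoglobulin, ribosomal protein, mitochondrial, histone, Xist and Y-linked genes), the highest by the smaller value were Gm42418 (107 in KI and 96.1 in WT), Lars2 (18.7 and 13.9), the nuclear RNA Malat1 (5.08 and 4.91) and Crip1 (4.79 and 4.81); Gm42418 lies over ribosomal RNA sequence, so its reads may not be of a gene. Then came Isg15, an interferon response gene (4.81 and 4.45), Ly6d, a surface antigen gene (4.53 and 4.38), Junb (4.31 and 4.70), Gm26917 (4.44 and 3.83), Bambi (3.2 and 3.93) and Jun (3.34 and 3). Of the markers, Il2ra, Hes1 and Ptcra were among the 100 genes past 1.5 in both libraries, and Rag1 and Notch3 were not. Il2ra was at 1.88 and 2.11, Hes1 at 1.73 and 1.91, Ptcra at 1.57 and 1.64, Rag1 at 1.36 and 1.33 and Notch3 at 1.09 and 1.15.

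**Figure D5:**
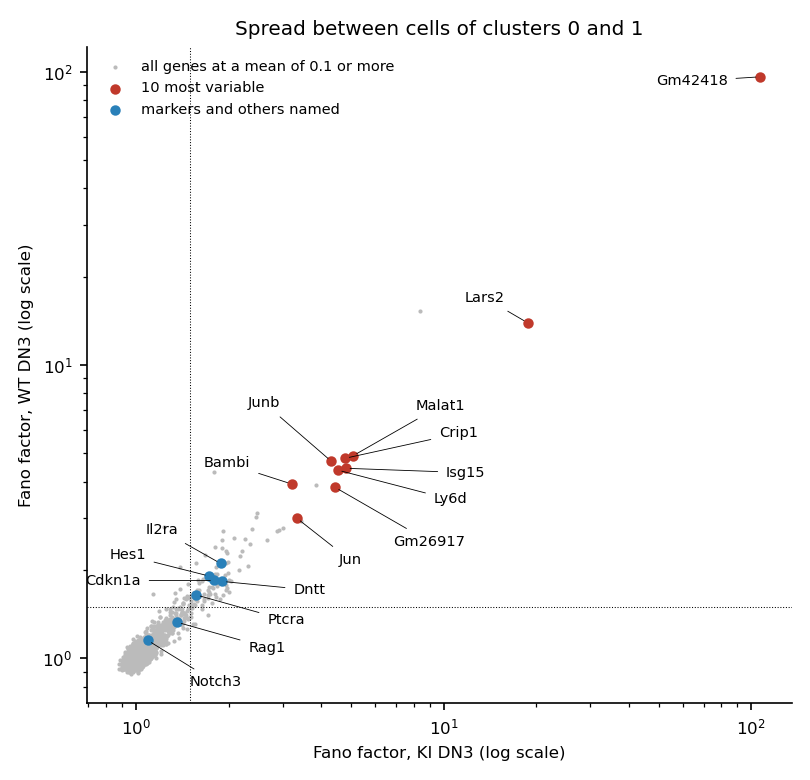
Fano factor of each of 4065 genes among resting DN3 cells thinned to 3000 UMIs, in KI (horizontal, log scale) against WT (vertical, log scale), with the 10 most variable genes in red, 5 markers, Cdkn1a and Dntt in blue, and dotted lines at 1.5. Most genes lie near 1 in both libraries, the 5 markers between 1.09 and 2.11, and Isg15, Ly6d, Junb and Jun at 3 and above.

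A small set of KI cells stood out in Isg15. The 54 KI DN3 cells of cluster 1, the cluster that held mostly WT cells, were set against KI cluster 0; this comparison was chosen after the values were seen. All 16 interferon response genes were at least 2-fold higher in the 54 cells (median 3.23), while 264 of all 6243 genes (4.23%) were, with a median of 0.03. A gene needed 20 CPM on either side, so genes low in KI cluster 0, such as Ifit1 and Usp18, entered through the 54 cells alone. Those could not have come out lower, and the clusters may rest on the same genes. The count of 16 therefore describes the 54 cells and is not a test. Isg15 was at 1658 CPM in the 54 cells against 81.1 CPM in KI cluster 0, Ifit1 at 471 against 3.26, Usp18 at 329 against 7.1 and Irf7 at 398 against 23.2. Together the 16 genes came to 6242 CPM in the 54 cells against 1042 CPM in KI cluster 0. In WT the smaller cluster was cluster 0, with 109 DN3 cells of a median of 2992 UMIs. There 0 of 12 measured interferon genes were 2-fold higher than in WT cluster 1 (median −0.38), with 130 of 6258 genes (2.08%) higher in all, and the sum was 1280 CPM against 1536 CPM. The 54 cells carried neither Mid1 nor Cd96 transcripts (0 UMIs), 2 genes that were near absent from the KI library as a whole.

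Between genotypes the resting cells differed in few genes. Among the 5964 genes that reached 20 CPM in KI or WT, 9 (0.151%) were at least 2-fold higher and 28 (0.469%) lower in KI than in WT resting DN3 cells, 1 library each. Cd200, a gene for a surface ligand that dampens immune cells, stood at 56.9 CPM in KI against 14.9 CPM in WT. On the other side were Mid1, a ubiquitin ligase gene (0.558 in KI against 36.4 in WT), Cd96, a receptor of T and NK cells (2.55 against 78.9), and Gm15518 (1.12 against 24.5). Of the 37 genes 4 lie on chromosome 16 within 20 Mb of Gsk3b (Cd96, Gm15518, Arhgap31 and Cd200), the gene that carries the knock-in, and 196 of 5916 genes with a position lie on that chromosome (3.31%). The rest of the 37 lie elsewhere, Mid1 on chromosome X among them. With 1 library each and sex not given, the genotype, any flanking DNA, sex, mouse and library cannot be told apart here. No member of the 31 gene lists that reached 20 CPM was 2-fold apart, and the 6 markers had log2 ratios of KI over WT between −0.36 (Hes1) and 0.37 (Erg). The largest shift of a list median was that of interferon genes, −0.53 over 12 genes.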

How the data were processed

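The authors deposited raw UMI counts of 15653 genes in 10237 cells from 4 expression libraries, filtered by a rule not given in the sources used here, with a table of each cell's library, cluster and cycle phase, whose methods are not given either. The submitters' processing notes name the mouse build mm10 and 2 versions of Cell Ranger, 3.1.0 and 6.0.1. From the 4 TCR libraries the deposited contig tables were read, with UMI counts per contig per the file headers, and joined to cells by library and barcode; 728 of 751 KI DN3 and 597 of 608 WT DN3 contig barcodes were in the count matrix. Those tables hold only barcodes with a productive contig.

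Counts were summed over cells of a library and cluster group and divided by the sum (CPM). Ratios carry exact Poisson intervals (conditional binomial) and shares exact Clopper-Pearson intervals, at 95% confidence, for counting error only. A gene was counted as different when it was at least 2-fold apart in the same direction in both DN3 libraries, with at least 20 CPM on either side in each; a side at 0 was set to a floor of 3 counts per side. Scrublet (scanpy 1.11.5), run on each library alone, marked 73 cells as doublets (0.713%), which were left in; the DN3 rates, 0.152% in KI and 0.139% in WT, may miss doublets. The calculation of ratios and the thinning were tested on simulated data. Python 3.11.15 was used, with scipy 1.17.1 and, for TMM factors alone, edgeR 4.0.16.

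The members and the gene lists were chosen with earlier results of these data known. Genes named beside list members were the 12 highest and 12 lowest over the other clusters, the 8 and 8 over cluster 6, the 10 of highest Fano factor, the 3 and 3 of KI over WT and the 3 most like each marker, leaving out receptor, immunoglobulin, ribosomal protein, mitochondrial, histone, Xist and Y-linked genes. Some genes this rule picks are not reported here. Alternatives covered the minimum level, scaling, weighting of cells, doublets, phase, the cluster taken, the cells compared with and the contig minimum.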

Additional observations from a re-analysis of the deposited data

Results flagged for a closer look

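In 2 genes of the lists the resting cells stood on opposite sides of the other DN3 cells in the KI and WT libraries, with intervals that excluded 0 in both. Nfkbia, the inhibitor of NF-κB that NF-κB itself induces, was at 68.3 CPM in KI resting cells against 48.4 CPM in the other KI DN3 cells (log2 ratio 0.50, 0.35 to 0.65), and at 50.3 CPM in WT resting cells against 57.2 CPM in the other WT DN3 cells (−0.18, −0.35 to −0.02). Thy1, a surface protein of T cells, was at 1158 against 1263 CPM in KI (−0.12, −0.16 to −0.09) and at 1355 against 1318 CPM in WT (0.04, 0.01 to 0.07). Scaled by TMM, Thy1 was at −0.45 in KI and −0.21 in WT, on the same side, while Nfkbia was at 0.18 and −0.43, on opposite sides. With G1 cells only Nfkbia was at −0.04 in both. Both genes are well under 2-fold apart, and the difference between the libraries was not tested.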

How the results depend on the processing

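No paired analysis was possible because each group has 1 library and the labels give no replicate numbers; leaving out a replicate was not possible either. Counts of genes at least 2-fold apart moved by over 1.5 times as follows. Against the other DN3 cells, the 847 higher became 1453 at a minimum of 5 CPM, 440 at 50 CPM, 2319 with no minimum, 492 by TMM, 467 by median ratios, 498 with each cell weighted the same and 122 with G1 cells only. The 568 lower became 1031 with no minimum, 896 by TMM, 948 by median ratios and 134 with G1 cells only. Against cluster 6, the 542 higher became 947 at 5 CPM, 267 at 50 CPM, 1312 with no minimum, 338 by median ratios and 278 with G1 cells only, and the 409 lower became 805 with no minimum, 620 by median ratios and 164 with G1 cells only. Of KI over WT, the 9 higher became 24, 4 and 505 at 5 CPM, 50 CPM and no minimum and 5 with cells weighted the same, and the 28 lower became 76, 9 and 510. Without called doublets or without shared barcodes, all of these counts stayed within 1.5 times. With the larger cluster alone the counts against the other DN3 cells did too. That setting was not run against cluster 6 or for KI over WT.

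With G1 cells only, some values changed sign. Of the cycling markers 1 gene reached 20 CPM among G1 cells, so the values are of that gene. With all cells 10 had reached it over the other cells and 2 over cluster 6. The gene was at 0.10 in KI and 0.19 in WT over the other cells, and at 0.19 and 0.28 over cluster 6. The median of G2 and M phase genes over the other cells was 0.04 in WT, on 12 genes against 40 with all cells. Bcl2 was at −0.21, Ly6d at −0.02 and Rrm2 at 0.74 in KI, and Bcl2l11 at −0.08 in WT. Cdkn2c was at 2.32 and 0.28 and Tcf4 at −0.02 and −0.10 in KI and WT. Over cluster 6, Rrm2 was at 0.58 in KI and Pclaf at 0.09 in WT. Against other cells of all 4 libraries Ccr9 was at −0.05 in KI. These G1 comparisons rest on 84 KI and 111 WT other cells, and over cluster 6 on 68 and 75, and the cause of the changes was not tested.

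Counted over cells with a contig only, the TRB share was 100% in resting and other cells of both libraries, because the tables list only barcodes with a productive contig. In cells of 4000 to 6000 UMIs it was 68.8% in KI and 60% in WT other DN3 cells, against 73.6% and 70.2% at all depths. The TRA share of other DN3 cells, 0.12% in KI and 0.16% in WT, was 0 in both libraries in that window and 0 in WT without shared barcodes. Genes with a Fano factor of at least 1.5 were 47 in cells thinned to 2000 UMIs, against 100 at 3000. The alternatives on shared barcodes and on this window were chosen after seeing the data. Another 33 counts and 781 list medians moved by less than 1.5-fold and 39 shares stayed within their intervals. Of 54 other medians that moved by more, 27 did so with G1 cells only and 8 against the other cells of all 4 libraries, the rest mostly at another minimum. Of single-gene values 2809 stayed within their counting intervals, 971 left them and 11 changed sign from past 2-fold. With 1 library per group, nothing here measures the spread between mice, and shares of single V genes rest on as few as 1 cell.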

Other observations

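The DN4 sort also gave 20 cells of clusters 0 and 1. The 14 KI DN4 cells had Ptcra at 337 CPM (211 to 510), Rag1 at 153 CPM (73.4 to 282) and Notch3 at 91.9 CPM (33.7 to 199.9), the last 2 at levels whose intervals cover those of KI DN3 resting cells. Il2ra, whose protein the DN4 sort leaves out, was at 30.6 CPM (3.71 to 111) on 2 UMIs, and Erg had 0 UMIs. A productive TRB contig was found in 1 of the 14 KI and 1 of the 6 WT DN4 cells. Of the 14 KI cells 10 were called G1 and of the 6 WT cells 4 were.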
